A study of Homo sapiens with 6 samples.

Results

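The genes described here encode the inhibitors of cyclin-dependent kinases (CDKs): the INK4 family (CDKN2A, CDKN2B, CDKN2C and CDKN2D) and the CIP/KIP family (CDKN1A, CDKN1B and CDKN1C). All 7 were found by gene symbol among the 35268 named genes of the expression table. They were chosen by the change of 1 member, CDKN2B, whose rise was among the largest after drug treatment, so the comparison of treated with control cells describes them and does not test them. Rh30 is an established cell line from a fusion-positive rhabdomyosarcoma (FP-RMS), a muscle-like tumor driven by the PAX3-FOXO1 fusion transcription factor. The cells were treated for 24 hours with the drug at 1 µM, or with YK-4-279's vehicle, DMSO. That drug, the one agent of the study, is a small molecule used as an inhibitor of ETS factors, transcription factors that share a DNA-binding domain. Each group had 3 libraries of poly(A) RNA, all from this 1 unmodified cell line, and the labels do not say whether the replicates were separate cultures, so the spread between them may be technical. The question put to these cells in the study was how gene expression responds when ETS factors, ETS1 in particular, are targeted in FP-RMS.

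INK4 proteins bind CDK4 and CDK6 and keep them from pairing with D-type cyclins, while CIP/KIP proteins bind assembled cyclin-CDK complexes, chiefly those of CDK2. Either way the retinoblastoma protein RB stays less phosphorylated, E2F transcription factors stay bound, and cells are held in the G1 phase. CDKN2A and CDKN2B lie side by side on chromosome 9p21, a region that is lost in many cancers. In normal muscle, p21 from CDKN1A and p57 from CDKN1C accompany the exit of myoblasts from the cell cycle.

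The values are normalized counts, that is, reads per gene divided by a factor of each library, and once that factor was undone every value was within 0.001 of a whole number of reads. The libraries held 16724650 to 24677433 reads on named genes. DMSO replicate 1 was the shallowest and stood apart. Its mean correlation with the other libraries across genes was 0.989, where the others had 0.992 to 0.993, and mitochondrial genes took 6.05% of its reads, where the others had 4.74% to 5.03%. Of 8 muscle lineage markers, 7 were well above the filter on low counts, among them MYOD1 at 34516 to 39146 normalized counts, while MYF5 was at or near 0. The summed muscle markers ranged from 80362 to 92277 in DMSO and from 85202 to 89733 in drug-treated libraries. Of 12 markers of other cell types, CD68 and KRT5 were at 0 in every library, and the sum of the list ranged from 86.0 to 106 in DMSO and from 102 to 137 in drug-treated libraries, most of it EPCAM and PECAM1. The part of these differences in the results below was not tested.

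Because the agent is directed at ETS factors, the promoter of CDKN2B is shown beside both promoters of its neighbor CDKN2A, which gives rise to p16INK4a and to p14ARF from separate first exons. Each sequence is the 250 bases before a start site on the minus strand, from RefSeq on GRCh38.p14, and capitals mark the ETS core GGAA or its reverse complement TTCC. CDKN2B lies at chr9:22009306-22009555, the ARF promoter of CDKN2A at chr9:21995325-21995574 and its INK4a promoter, inside the first intron of the ARF transcript, at chr9:21974858-21975107.

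CDKN2B: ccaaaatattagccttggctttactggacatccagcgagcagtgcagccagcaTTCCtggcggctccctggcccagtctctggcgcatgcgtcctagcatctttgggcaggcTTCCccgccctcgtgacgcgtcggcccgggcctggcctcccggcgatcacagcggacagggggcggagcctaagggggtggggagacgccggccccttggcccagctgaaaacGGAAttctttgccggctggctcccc

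CDKN2A, ARF start: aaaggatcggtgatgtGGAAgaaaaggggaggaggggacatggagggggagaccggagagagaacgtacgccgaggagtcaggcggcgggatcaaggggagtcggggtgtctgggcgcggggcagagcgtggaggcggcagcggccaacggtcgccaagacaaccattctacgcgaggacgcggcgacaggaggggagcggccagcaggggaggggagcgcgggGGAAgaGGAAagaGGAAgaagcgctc

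CDKN2A, INK4a start: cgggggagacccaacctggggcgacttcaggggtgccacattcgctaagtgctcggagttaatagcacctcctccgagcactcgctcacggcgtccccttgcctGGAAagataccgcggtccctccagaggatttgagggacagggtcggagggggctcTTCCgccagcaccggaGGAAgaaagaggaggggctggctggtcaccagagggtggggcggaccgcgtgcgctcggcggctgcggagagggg

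The CDKN2B window held the ETS core at 3 positions on either strand, the ARF window at 4 and the INK4a window at 3. This core is common: 92.7% of 35116 promoter windows of the same length had it, with a median of 3 matches. The longer ETS1 consensus CCGGAAGT, which contains the core, was in none of the 3 windows and in 3.42% of all windows. The E-box CANNTG was found at 1 position before CDKN2B (61.8% of all windows had it) and at none before either CDKN2A start. The GC box GGGCGG was found at 2 positions before CDKN2B, 0 before ARF and 1 before INK4a, against 42.6% of all windows with a match. The SMAD element CAGAC was found once before ARF and not before the other 2 starts (38.0% of all windows had it), and TATAAA was in none of the 3 (10.7% of all windows). The base composition was alike, with 66.4% G and C before CDKN2B and 66.8% before both CDKN2A starts, above the median of 58% for all windows. Of the 7 genes, 6 had a promoter entry and they had 9 entries in all. The ETS core was found 0 to 2 times in the 3 windows of CDKN2C, 3 times in that of CDKN1A, and 2 times in those of CDKN1B and CDKN2D. A match is a run of letters and not a site of binding, and no binding was measured in these data.

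CDKN2B (chr9:22002903-22009305 on hg38, minus strand) encodes p15INK4b, an INK4 inhibitor known as an early target of TGF-beta signaling. DMSO replicates 1, 2 and 3 had 78.2, 90.9 and 78.5 normalized counts of it, and drug-treated replicates 1, 2 and 3 had 195, 177 and 178. The lowest treated library thus lay well above the highest control library. In reads, these were 62, 91 and 94 in DMSO and 228, 163 and 178 after treatment. The mean rose from 82.5 ± 7.28 to 184 ± 10.3 (SD, n = 3 each), 2.22-fold, and the log2 fold change was 1.15 (standard error 0.13, 95% interval 0.87 to 1.42) on the scale of log2(normalized count + 1). The replicates varied no more than reads of this number do by counting alone. Their coefficient of variation was 8.82% in DMSO, where counting error gives 11.2%, and 5.59% after treatment, where it gives 7.33%. In RNA from whole cultures, more cells with CDKN2B mRNA and more of it per cell cannot be told apart.

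**Figure D1:**
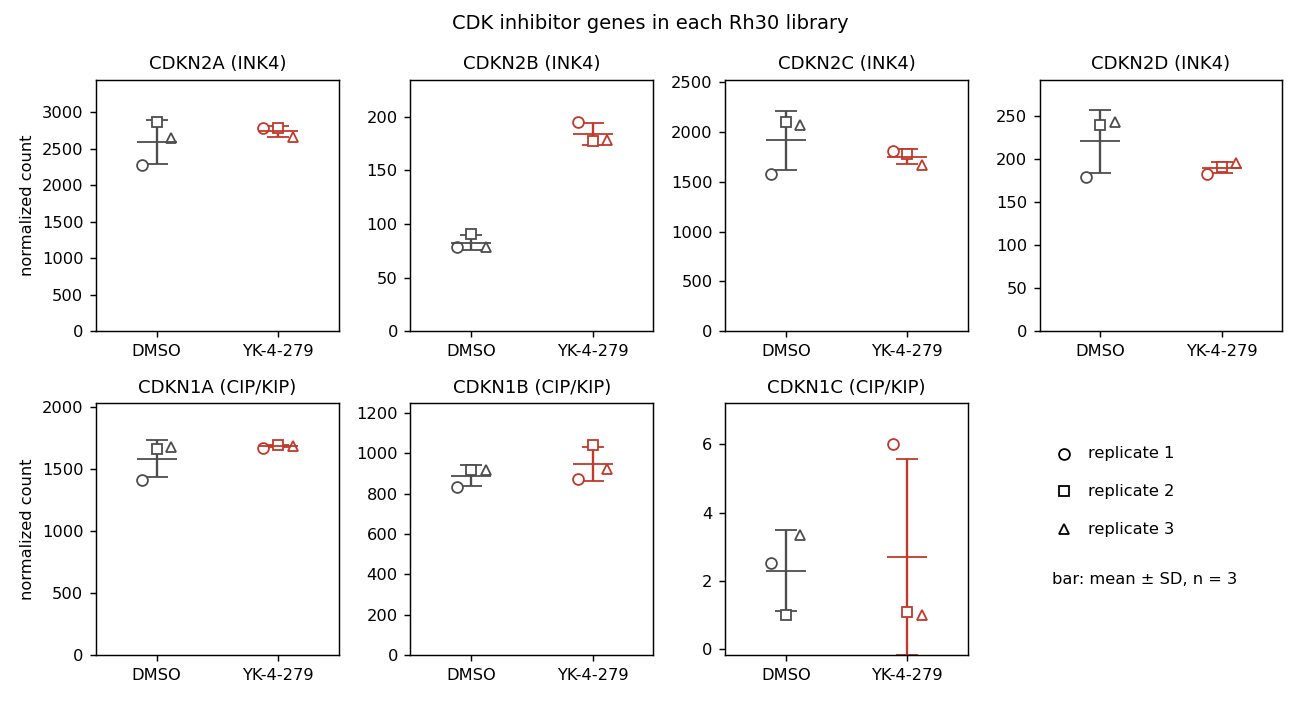
Normalized counts (y axis, linear) of each CDK inhibitor gene in the 3 DMSO and the 3 drug-treated libraries. Symbols mark the replicate number and bars the mean ± SD. CDKN2B is the only member tested whose groups are apart, at 78.2 to 90.9 against 177 to 195, and DMSO replicate 1 is the lowest control library for each member but CDKN1C.

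Of the genes that limma called over the whole table (adjusted p under 0.05) and that averaged at least 100 normalized counts, CDKN2B had the largest rise but 1. H2BC5, a histone gene, stood above it with a log2 fold change of 1.51, and EGR1, an immediate early transcription factor, just below it with 1.10. Without the limit on the mean or the p-value, 44 of the 13930 genes tested had a larger log2 fold change. The value for CDKN2B ranged from 1.10 to 1.22 when each library was left out in turn.

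CDKN2A (chr9:21967752-21995301, minus strand) had 2270, 2870 and 2644 normalized counts in DMSO replicates 1, 2 and 3, and 2784, 2783 and 2653 after treatment. The treated libraries lay inside the range of the controls, with means of 2595 ± 303 and 2740 ± 75.1 (SD, n = 3 each). The log2 fold change was 0.09 (95% interval -0.08 to 0.25), and it was -0.01, 0.16 and 0.10 without DMSO replicates 1, 2 and 3. The count joins the transcripts of p16INK4a, an INK4 inhibitor, and p14ARF, which acts through MDM2 and p53, so a shift from the one to the other would not be seen. Of its 3885 exon bases, 593 (15.3%) overlap exons of CDKN2B-AS1 on the other strand, whereas CDKN2B shares none of its 4000 exon bases with that gene. CDKN2A and CDKN2B have 31 stretches of 50 bases in common, 0.755% of those of CDKN2A and 0.776% of those of CDKN2B, and how reads in them were assigned was not tested.

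CDKN2C (chr1:50960745-50974634, plus strand) encodes p18INK4c, which is known to restrain the cell cycle in muscle precursors among other cells. It had 1577, 2105 and 2076 normalized counts in DMSO replicates 1, 2 and 3, and 1808, 1783 and 1669 after treatment. DMSO replicate 1 was below all treated libraries and the other 2 controls were above them. With all libraries the log2 fold change was -0.12 (95% interval -0.32 to 0.09), and without DMSO replicate 1 it was -0.25 (-0.35 to -0.16). Without DMSO replicate 2 or 3 it was instead -0.05 (-0.25 to 0.16) or -0.06 (-0.28 to 0.16), so its size depended on which control was left out. An unnamed noncoding RNA on the other strand overlaps 617 (20.4%) of its exon bases.

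CDKN2D (chr19:10566460-10569059, minus strand), the gene of p19INK4d, showed the same arrangement at lower counts. The DMSO libraries had 179, 240 and 244 normalized counts and the drug-treated libraries 183, 191 and 196. Again DMSO replicate 1 was the lowest of all 6, and the other 2 controls were the highest. The log2 fold change was -0.20 (95% interval -0.48 to 0.08) with all libraries and -0.34 (-0.57 to -0.12) without DMSO replicate 1. It was -0.14 (-0.44 to 0.17) without DMSO replicate 2 and -0.12 (-0.43 to 0.19) without DMSO replicate 3.

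CDKN1A (chr6:36676460-36687337, plus strand) encodes p21, the CIP/KIP inhibitor best known as a target of p53. It had 1412, 1657 and 1676 normalized counts in DMSO and 1670, 1688 and 1682 in drug-treated libraries. The treated libraries differed among themselves by a coefficient of variation of 0.53%, and the controls by 9.29%, which came from DMSO replicate 1. The log2 fold change was 0.09 (95% interval -0.07 to 0.25) and was 0.01 without that library, 0.13 without DMSO replicate 2 and 0.14 without DMSO replicate 3. DINOL, a noncoding RNA on the other strand, overlaps 146 (4.87%) of its exon bases.

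CDKN1B (chr12:12685498-12722369, plus strand) encodes p27, whose level is set largely by protein turnover. The DMSO libraries had 831, 919 and 919 normalized counts and the treated ones 875, 1040 and 923, so that the groups overlapped. The log2 fold change was 0.09 (95% interval -0.09 to 0.26), and 0.04, 0.11 and 0.11 without DMSO replicates 1, 2 and 3. Without drug-treated replicates 1, 2 and 3 it was 0.14, 0.02 and 0.10.

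CDKN1C (chr11:2883213-2885775, minus strand), the imprinted gene of p57, was close to absent. It had 2, 1 and 4 reads in the DMSO libraries and 7, 1 and 1 in the treated ones. The sums were 7 reads (exact Poisson 95% interval 2.81 to 14.4) and 9 reads (4.12 to 17.1), and these intervals, which cover counting error only, overlap. The gene did not reach the mean of 10 normalized counts needed for a test, and no change was detectable at this depth.

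**Figure D2:**
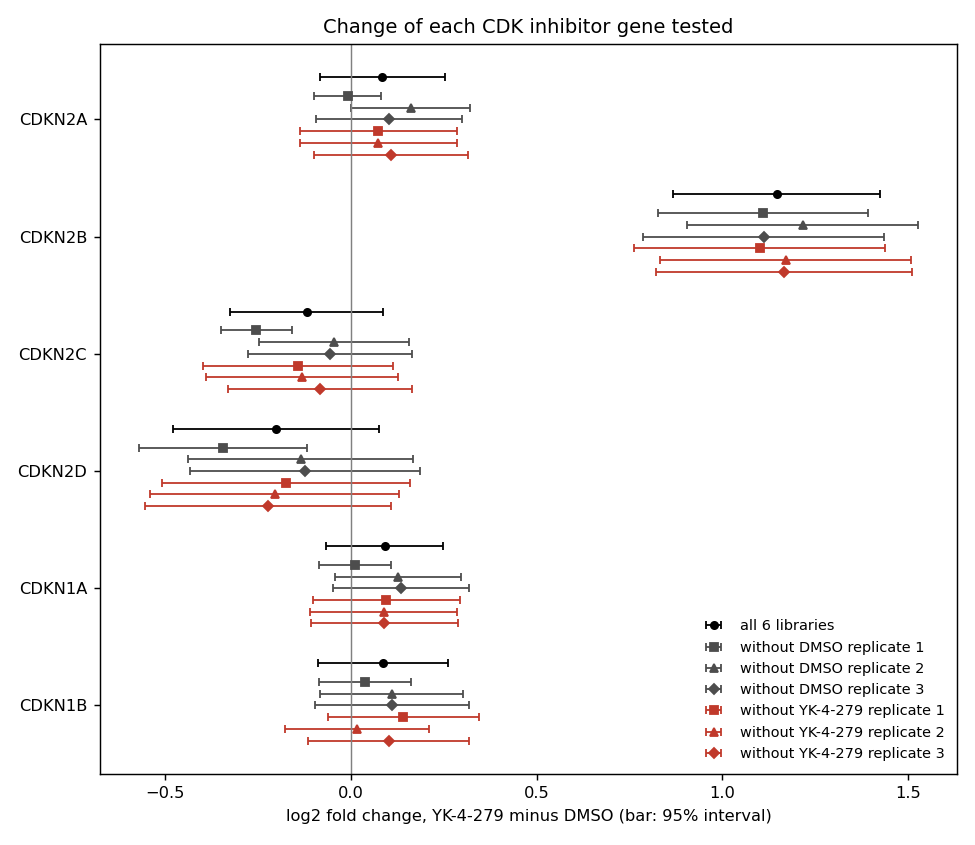
Log2 fold change of each CDK inhibitor gene tested (x axis, drug minus DMSO, bars 95% intervals) from limma with all 6 libraries (circles) and with each library left out in turn (colors mark its group; squares, triangles and diamonds mark replicates 1, 2 and 3). CDKN2B stays between 1.10 and 1.22, CDKN2C lies between -0.25 and -0.05 and CDKN2D between -0.34 and -0.12, and the other 3 lie between -0.01 and 0.16.

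Of the 7 members, 6 were tested and 1 of them, CDKN2B, was called at an adjusted p under 0.05 by limma, beside 3.41% of all genes tested, or 1.26% called higher and 2.15% called lower. Since the same comparison chose the family, nothing is read from this count. The groups did not overlap for 1 member, CDKN2B, beside 26.0% of all genes. Without DMSO replicate 1, limma called 3 of the 6, CDKN2B higher and CDKN2C and CDKN2D lower, but 13.1% of all genes were then called as well, 4.63% higher and 8.45% lower. With any other single library left out, CDKN2B was the 1 member called. Without DMSO replicate 1, the 2 remaining controls lay above all treated libraries in CDKN2C and CDKN2D, as they did in 22.9% of all genes.

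Levels of the members were compared per length, in RPKM, that is, reads per kilobase of exon scaled to the reads of the library on named genes. In DMSO the order was CDKN2A at 32.1 ± 4.02, CDKN2C at 30.6 ± 5.03, CDKN1A at 25.4 ± 2.63, CDKN2D at 7.06 ± 1.23, CDKN1B at 4.62 ± 0.316, CDKN2B at 0.991 ± 0.0908 and CDKN1C at 0.0443 ± 0.0232 (SD, n = 3). The ranges over libraries of CDKN2A and CDKN2C overlapped, as did those of CDKN2C and CDKN1A. Within each DMSO library CDKN2C was above CDKN1A, with 24.8 and 22.4 in replicate 1, 33.6 and 26.6 in replicate 2, and 33.4 and 27.1 in replicate 3. CDKN2A was above CDKN2C in DMSO replicates 1 and 2 but not in replicate 3, which had 33.0 and 33.4, so the order of these 2 genes was not the same in every library. The ranges of every other pair of neighbors in the order were apart. CDKN2B was thus the lowest member above the filter, and it kept that place after treatment, with 2.29 ± 0.147, below CDKN1B with 5.09 ± 0.388. The order depends on the length used. With the longest transcript in place of all exons, CDKN2A stood at 119, CDKN1A moved ahead of CDKN2C with 33.5, and CDKN1B ahead of CDKN2D with 9.87.

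**Figure D3:**
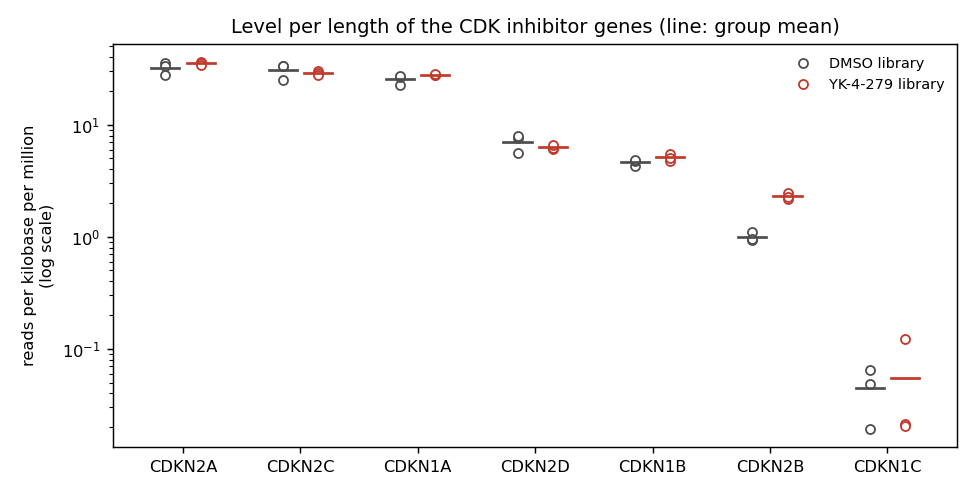
RPKM (y axis, log scale) of the CDK inhibitor genes, ordered by their DMSO mean. Each circle is a library and each line a group mean. CDKN2B moves from 0.991 to 2.29 and stays below CDKN1B, and CDKN1C lies near 0.05 in both groups.

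CDKN2B was a small share of the mRNA of the INK4 genes in both groups. The sum takes in the whole CDKN2A count, which joins INK4a and ARF transcripts. The part of CDKN2B in the summed INK4 level was 1.57%, 1.40% and 1.27% in DMSO replicates 1, 2 and 3. It was 3.29%, 2.99% and 3.16% in the treated libraries. The ratio of CDKN2A to CDKN2B dropped from 32.4 ± 2.40 to 15.4 ± 0.754 (SD, n = 3 each). The summed INK4 level itself was 70.8 ± 10.2 in DMSO and 72.7 ± 1.87 after treatment, and that of the CIP/KIP genes 30.0 ± 2.95 and 33.1 ± 0.206, also in RPKM. For both sums DMSO replicate 1 was the lowest library, with 59.1 and 26.7. With the longest transcript the share of CDKN2B was 0.652% in DMSO and 1.41% after treatment.

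The neighbors of CDKN2B on 9p21 were set beside it. Within 2000 kb on either side of its start the table held 47 genes, of which 9 were tested. The 1 of these that was called was CDKN2B, for which the family was chosen, beside 3.41% of all genes. Another 26 were listed at 0 in every library, among them 15 of the 16 interferon genes of the cluster there. CDKN2A starts 14.0 kb away on the same strand and had the log2 fold change of 0.09 given above. CDKN2B-AS1, the antisense noncoding RNA ANRIL that spans CDKN2B and is known to recruit Polycomb proteins, had 153, 143 and 154 normalized counts in DMSO and 140, 118 and 151 after treatment. Its log2 fold change was -0.14 (standard error 0.13, limma adjusted p = 0.596), so no change was detected, and the interval from -0.42 to 0.14 does not hold a rise of the size of CDKN2B. MTAP, a methionine salvage enzyme often lost together with CDKN2A, had -0.20 (limma adjusted p = 0.172), and KLHL9, an adaptor of a ubiquitin ligase and the gene with the highest mean in the list of 9p21 neighbors, which leaves out both INK4 genes, had -0.18 (adjusted p = 0.170). The treated libraries of both genes lay below their controls, as in 15.1% of all genes. DMRTA1, on the other side, went from 102, 97.9 and 103 to 146, 116 and 125 normalized counts. Its groups did not overlap, as in 10.9% of all genes in that direction, but its log2 fold change of 0.35 did not pass the test (limma adjusted p = 0.193). None of the 7 neighbors tested from the list was called with any single library left out. With the GC and length trend removed 1 of them, FOCAD, named here after its value was seen, was called lower.

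**Figure D4:**
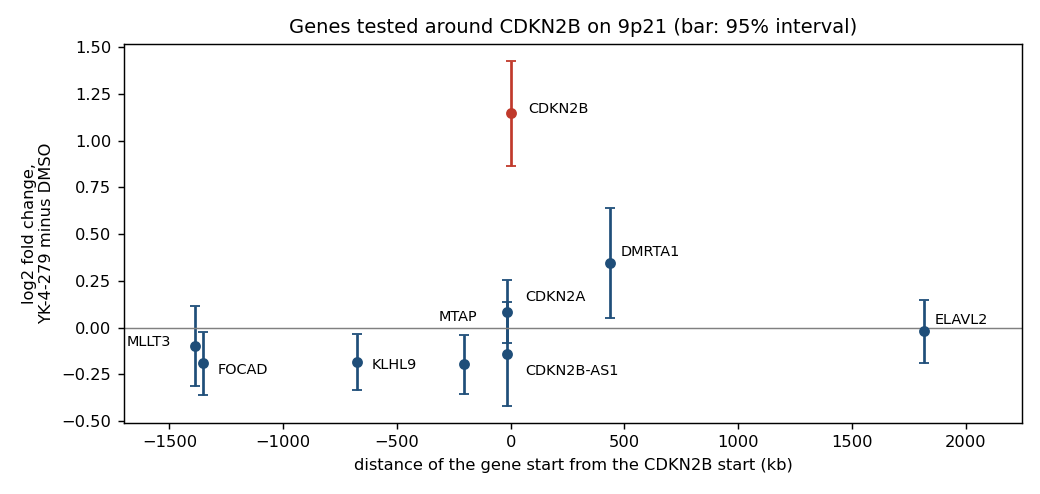
Log2 fold change (y axis, drug minus DMSO, bars 95% intervals) of the 9 genes tested within 2000 kb of CDKN2B, by the distance of their starts from the CDKN2B start (x axis, kb). CDKN2B stands at 1.15 and CDKN2A, next to it, at 0.09. The others lie between -0.20 and 0.35.

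The partners and regulators of the CDK inhibitors were taken as lists, each set beside the median log2 fold change of all genes, -0.01. In these lists limma called 20 of 119 genes tested, 10 higher and 10 lower, or 16.8%, beside 3.41% of all genes. The lists were written with earlier results of these data known, so nothing is read from the difference between these shares. The count of 20 moved with the libraries used, and the share of all genes called moved in the same direction. The lists held 46, 28 and 14 calls without DMSO replicates 1, 2 and 3, where 13.1%, 4.92% and 1.74% of all genes were called. They held 3, 4 and 4 without drug-treated replicates 1, 2 and 3, where 0.137%, 0.180% and 0.331% of all genes were. Without the trend in eBayes the lists held 1 call, and 33 genes were called in all.

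The direct targets of the INK4 proteins did not pass the test. Of 5 genes, 0 were called, and their median was -0.12. CDK4 had 50641 ± 3667 normalized counts in DMSO and 46521 ± 1056 after treatment (SD, n = 3 each). The log2 fold change, -0.12 with a standard error of 0.06, did not pass the test (limma adjusted p = 0.323). Of the D-type cyclins that activate it, CCND1 had -0.16 (adjusted p = 0.142), CCND2 0.02 (0.877) and CCND3 -0.12 (0.428), all by limma, while CDK6 had -0.01 (limma adjusted p = 0.959) and turned slightly positive under other scalings. Without DMSO replicate 1, 3 of the 5 were called lower, beside 8.45% of all genes. With any other single library left out, 0 were called.

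The targets of the CIP/KIP proteins fell in part. Of 8 genes, 5 were called lower and 0 higher, beside 2.15% and 1.26% of all genes, with a median of -0.34. CCNE2, an E-type cyclin that activates CDK2 at the start of S phase, had 367 ± 27.8 normalized counts in DMSO and 254 ± 3.71 after treatment (SD, n = 3 each) and so fell by 0.53 on the log2 scale (limma adjusted p = 0.011). CDK1, the kinase of mitotic entry, fell from 3227 ± 253 to 2352 ± 197 (-0.46, limma adjusted p = 0.007), CDK2 from 1002 ± 43.7 to 771 ± 13.0 (-0.38, 0.012) and CCNA2 from 5437 ± 393 to 4299 ± 149 (-0.34, 0.012). The fifth, CCNE1, is named here after its value was seen (-0.33, limma adjusted p = 0.020). CCNB1, the member with the highest mean, had -0.08 (limma adjusted p = 0.607). The calls in this list numbered 5 without DMSO replicate 1 or 2, 4 without DMSO replicate 3, and 0, 0 and 1 without drug-treated replicates 1, 2 and 3.

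Downstream of both families, the RB and E2F list had a median of -0.22. Of its 11 genes, 3 were called lower and 0 higher, beside 2.15% and 1.26% of all genes. The 3 were E2F7 and E2F8, which repress genes of the cell cycle, and the activator E2F2. E2F7 went from a mean of 1783 ± 169 normalized counts down to 1164 ± 25.6 (SD, n = 3 each), with a log2 fold change of -0.61 (limma adjusted p = 0.001). On the same scale E2F8 had -0.48 and E2F2 -0.31 (limma adjusted p = 0.011 and 0.017). E2F2 lost its call with quantile normalization, with the replicate block and without DMSO replicate 3. E2F2 and E2F8 lost theirs without any one of the treated libraries, and all 3 lost theirs without the eBayes trend. E2F1, with the highest mean of the list, had -0.22 (limma adjusted p = 0.131). Without DMSO replicate 1 there were 6 calls, all lower, where 8.45% of all genes were called lower. Without replicate 2 there were 5, without replicate 3 there were 2, and without any one of the treated libraries there was 1.

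Proteins of the CIP/KIP family are degraded through ubiquitin ligases. Of 11 genes for parts of these ligases, 0 were called, with a median of -0.05. SKP2, the F-box protein that recognizes p27, had 22630 ± 1504 normalized counts in DMSO and 19994 ± 360 after treatment, with a log2 fold change of -0.18 (limma adjusted p = 0.121). For SKP2, and for CKS1B, RBX1 and DTL, which are named after their values were seen, the treated libraries lay below the controls, as in 15.1% of all genes. Without DMSO replicate 1, 4 of the 11 were called lower, beside 8.45% of all genes. Without DMSO replicate 2, 1 was called lower.

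The INK4 genes are a classic site of Polycomb repression, which the demethylase KDM6B opposes. Of 17 Polycomb and KDM6 genes, 1 was called higher and 1 lower, beside 1.26% and 2.15% of all genes, with a median of -0.06. KDM6B went up from 1638 ± 234 normalized counts to 2087 ± 120 (SD, n = 3 each, log2 fold change 0.36, limma adjusted p = 0.049), and EZH2, the methyltransferase of Polycomb, fell from 2425 ± 124 to 2041 ± 59.2 (-0.25, limma adjusted p = 0.046). Both were barely past the threshold. The list held 0 calls with TMM scaling, with quantile normalization, without the eBayes trend, with the replicate block, and without DMSO replicate 3 or any one of the treated libraries. It held 1 call, KDM6B, with edgeR. It held 7 without DMSO replicate 1 or with the GC and length trend removed, where 1827 and 1828 genes were called in all. CBX2, the member with the highest mean, had -0.09 (limma adjusted p = 0.534).

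Of 22 transcription factors known to act on CDK inhibitor promoters, 2 were called higher and 0 lower, beside 1.26% and 2.15% of all genes. Their median was 0.02. ID2, an inhibitor of E proteins and of RB, had 219 ± 11.8 normalized counts in DMSO and 421 ± 20.7 after treatment (SD, n = 3 each), a rise of 0.94 on the log2 scale (limma adjusted p = 2.8e-04). KLF4, which can activate CDKN1A, rose from 178 ± 19.9 to 250 ± 10.7 (0.49, limma adjusted p = 0.032). It lost its call without DMSO replicate 3 or any one of the treated libraries. It also lost its call with quantile normalization, with the replicate block and without the eBayes trend. MYOD1, which activates CDKN1A in muscle, had -0.01 (limma adjusted p = 0.963).

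CDKN2B and CDKN1A belong to known programs whose other members can be set beside them. Among 12 early targets of TGF-beta, 3 rose and 0 fell, beside 1.26% and 2.15% of all genes, with a median of 0.30. Among those that rose were the inhibitory SMAD7 (from 217 ± 32.7 to 318 ± 39.2 normalized counts, 0.55, limma adjusted p = 0.036) and BHLHE40 (0.46, 0.035), while SKIL, with the highest mean, had 0.04 (limma adjusted p = 0.857). Among 20 p53 targets tested, 3 rose and 0 fell, with a median of 0.13. GDF15, a stress cytokine, rose from 430 ± 42.0 to 634 ± 35.4 normalized counts (0.56, limma adjusted p = 0.007), PLK2 had 0.37 (0.011) and SESN2 0.35 (0.041), and AEN, with the highest mean, had 0.02 (limma adjusted p = 0.941). Both lists held 0 calls without any one of the treated libraries. Without DMSO replicate 1, 6 TGF-beta targets were called higher and 1 lower, and 4 p53 targets higher and 2 lower. In that run 4.63% of all genes were called higher and 8.45% lower. Each list had 3 called higher without DMSO replicate 2 and 2 without DMSO replicate 3. SMAD7, BHLHE40 and SESN2 lost their calls without DMSO replicate 3, with quantile normalization and with the replicate block. BHLHE40 also lost its call without DMSO replicate 2. Without the eBayes trend, both lists held 0 calls. Several p53 and TGF-beta targets are also induced by other stimuli, so neither list stands for 1 pathway alone.

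Around CDKN1C on 11p15, 6 of 12 listed genes were tested. KCNQ1OT1, the noncoding RNA that silences CDKN1C in cis on the paternal chromosome, went up from 2177 ± 324 normalized counts to 3269 ± 289 (SD, n = 3 each, log2 fold change 0.59, limma adjusted p = 0.007). It lost its call without drug-treated replicate 1 or 3. IGF2, a growth factor of the adjacent imprinted domain that is highly expressed in rhabdomyosarcoma, fell from 17896 ± 833 to 12711 ± 627 (-0.49, limma adjusted p = 0.001). The median of the 6 genes was 0.03.

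**Figure D5:**
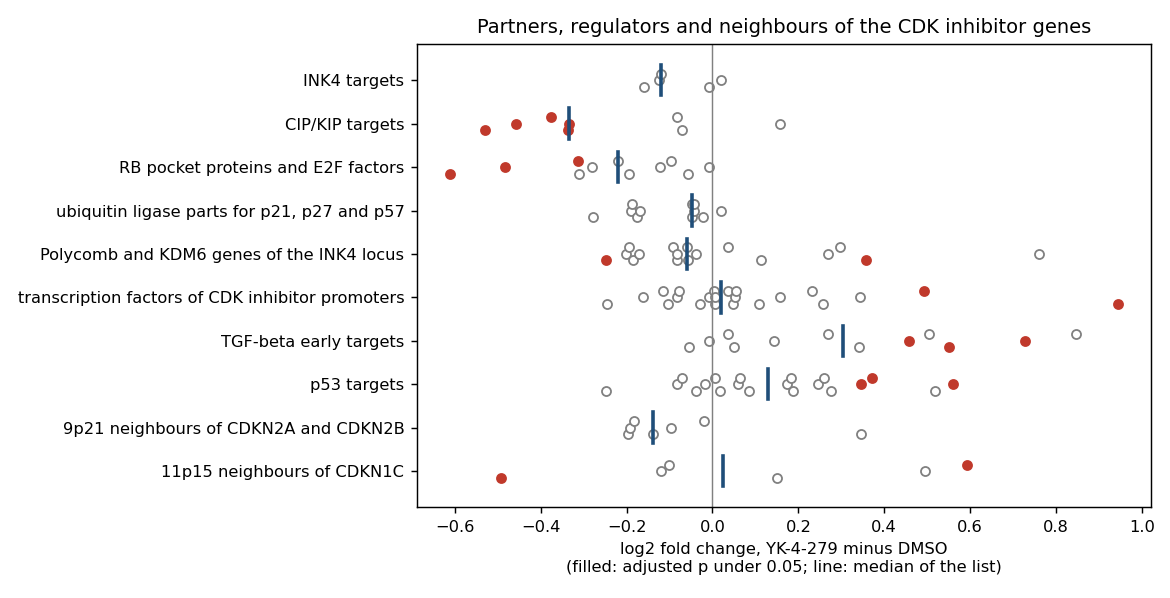
Log2 fold change (x axis, drug minus DMSO) of every tested gene of the 10 lists of partners, regulators and neighbors (rows). Filled circles have a limma adjusted p under 0.05 and vertical lines are medians. The CIP/KIP targets have 5 filled circles, all below 0, and the TGF-beta and p53 targets 3 each, all above 0. Of all genes tested, 3.41% were called.

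The genes whose profile over the 6 libraries was most like that of CDKN2B were found among 10693 genes with a mean of at least 100, by the root mean square difference of log2 values centred on each gene's mean. They were EGR1 (0.11), SLFN5 (0.13), BMF (0.15), H2BC12 (0.16) and ID2 (0.16). EGR1 had 257, 291 and 291 normalized counts in DMSO and 572, 581 and 641 after treatment. SLFN5, of the Schlafen family, had 121, 132 and 133, then 249, 241 and 267. BMF, a BH3-only gene of apoptosis, had 356, 363 and 417, then 754, 736 and 722. Their treated libraries lay above their controls and the log2 fold changes of all 5 lay between 0.85 and 1.10. Both follow from choosing genes by their likeness to CDKN2B, and nothing is read from them.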

How the data were processed

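Poly(A) RNA of Rh30 cells was sequenced on an Illumina platform, paired-end, from directional libraries. The authors trimmed reads with BBDuk, aligned them to hg38, counted them per gene with STAR 2.7.9a and used DESeq2, whose version is 1.44.0 per the labels. The annotation and the strand setting of the counting are not given in the sources used here. What they deposited is a normalized signal, the reads of each gene divided by a factor of the library, and no column was left unused. With that factor, taken from the smallest value above 0 of each library as 1 read, 100% of the values came within 0.001 of whole reads. Of 35269 rows, 1 had no gene name (at most 6 reads per library) and was left out. Precision follows the depth of 16724650 to 24677433 reads.

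Differences were fitted with limma 3.58.1 in R 4.3.3 (lmFit, eBayes with trend). The input was log2(normalized count + 1) of the 13930 genes that averaged at least 10. Tests were two-sided, with Benjamini-Hochberg adjustment over all of them and a threshold of 0.05. Log2 fold changes understate those of genes with few reads. Levels per length used exons from GENCODE on hg38, and promoters came from RefSeq. The code was tested on simulated data. The whole reads were also tested with edgeR 4.0.16 and with DESeq2 1.42.0, and other pseudocounts, filters and scalings, a replicate block and leaving out each library were tried. Replicate numbers were not used as a block, since the deviations of same-numbered libraries did not go together (correlations -0.0985, -0.0269 and -0.0267).

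The members and lists were chosen with earlier results of these data known. Genes named were all members, in each list the gene with the highest mean and up to 4 called genes with the largest change, all INK4 targets, MTAP, CDKN2B-AS1 and DMRTA1, and the 5 profiles nearest to CDKN2B. A gene that this rule names and a marker are not reported here.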

Additional observations from a re-analysis of the deposited data

How the results depend on the processing

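CDKN2B kept its rise and its call under every alternative run, including edgeR and DESeq2. These runs use the same libraries whose comparison chose CDKN2B, so they describe its rise and do not test it. The number of genes called over the whole table was 475 (176 higher), and it became 277 (132 higher) with quantile normalization, 33 (30 higher) without a trend in eBayes and 180 (79 higher) with the replicate block. It was 1828 of 13705 genes (479 higher, 1349 lower) once the GC and length dependence of every library had been taken out. That step was chosen after seeing the data. The number ranged from 19 to 1827 with 1 library left out. The 20 calls in the lists became 12 after quantile normalization, 1 without the eBayes trend, 12 with the replicate block, 45 without the GC and length trend, and 3 to 46 with 1 library left out. With that trend removed, CDKN2C and CDKN2D had log2 fold changes of -0.21 and -0.32 and limma adjusted p-values of 0.016 and 0.046, and CDKN2A and CDKN1A 0.01 and 0.00. With 1 library left out, the log2 fold change ranged from -0.01 to 0.16 for CDKN2A, 1.10 to 1.22 for CDKN2B, -0.25 to -0.05 for CDKN2C, -0.34 to -0.12 for CDKN2D, 0.01 to 0.14 for CDKN1A and 0.02 to 0.14 for CDKN1B. With the longest transcript, levels per length in DMSO were 119 for CDKN2A, 33.5 for CDKN1A and 9.87 for CDKN1B. The 39 other genes named had 663 further fits, of which 541 kept direction and side of the threshold, 90 lost a call, 13 gained one and 19 changed sign, all 19 in genes that were not called and lay near 0. CDK6 was 0.0067 with TMM scaling, 0.040 with quantile normalization, 0.0088 with edgeR, 0.0045 with DESeq2 and 0.031 with the trend removed (-0.043 to 0.042 with 1 library left out). MYOD1 was 0.0071, 0.011, 0.0083 and 0.0043 with TMM, quantile, edgeR and DESeq2 (-0.060 to 0.031). AEN was -0.026 with the trend removed (-0.094 to 0.088), and leaving out 1 library gave -0.0020 to 0.049 for CCND2, -0.13 to 0.015 for CCNB1 and -0.055 to 0.14 for SKIL. The cause of these changes was not tested. CDKN1C, with 1 to 7 reads per library, is the member that depth limits.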
